A study of Homo sapiens with 12 samples.

Results

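The S100 proteins are a family of small calcium-binding proteins, and 8 of their genes that are known from myeloid cells are described here: S100A4, S100A6, S100A8, S100A9, S100A10, S100A11, S100A13 and S100P. They were taken by gene symbol from the count tables of both cell lines, which hold 18304 symbols between them, and all 8 symbols are in both tables. Gene expression had been measured by paired-end, poly(A)-selected RNA sequencing in OCI-AML2 and MOLM-13, established lines grown from the blood cells of patients with acute myeloid leukaemia (AML). OCI-AML2 cells received DMSO (the vehicle) or 200 nM selinexor, and MOLM-13 cells received DMSO or 75 nM selinexor. All 4 groups were harvested after 36 h, with 3 libraries from independent cultures each, 12 in all. Selinexor blocks XPO1 (exportin 1), the carrier that takes many proteins and some RNAs out of the nucleus. Each comparison asks how the drug changed a line's transcripts. The dose differed between the lines, so line and dose cannot be told apart in any contrast of their responses.

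Most S100 proteins bind calcium through a pair of EF-hand motifs, change shape and then dock onto partner proteins, usually as dimers. S100A10 is an exception, since its EF-hands no longer bind calcium and it holds its partner without it. S100A8 and S100A9 pair as calprotectin, an abundant cytosolic protein of neutrophils and monocytes, and the pair is released as an alarm signal in inflammation. S100A10 and S100A11 bind annexins, proteins of the membrane surface, and S100A4 and S100A6 bind cytoskeletal and signalling proteins. S100P was first isolated from placenta, and S100A13 takes part in the release of growth factors that lack a signal peptide.

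Of the 8 genes, 7 lie on chromosome 1, and S100P lies on chromosome 4. In GENCODE 29 (GRCh38), S100A10 spans chr1:151982915-151994390 and S100A11 spans chr1:152032506-152047907, both on the minus strand. S100A9 spans chr1:153357854-153361027 on the plus strand, and S100A8 spans chr1:153390032-153391188 on the minus strand. S100A6 at chr1:153534599-153536244, S100A4 at chr1:153543613-153550136 and S100A13 at chr1:153618787-153631360 follow, all on the minus strand. S100P spans chr4:6693069-6697170 on the plus strand.

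The stretch just before the RefSeq start is shown for 7 of the genes because it sets the members apart in 1 letter pattern, the TATA box consensus TATAAA, which helps to place the start of transcription. Each line gives the 30 bases from 40 to 11 bases before a start, 5′ to 3′ on the gene's own strand (RefSeq, GRCh38.p14), with TATAAA in capitals. Only exact matches were counted, and the S100A6 stretch holds tataag, which differs from TATAAA in its last base only.
S100A4, chr1:153545817-153545846, minus strand: tggctggggTATAAAtaggtcagacctctg
S100A8, chr1:153391084-153391113, minus strand: agcctaaccgcTATAAAaaggagctgcctc
S100A9, chr1:153357814-153357843, plus strand: caggagctgccTATAAAtgccgagcctgca
S100A13, chr1:153627516-153627545, minus strand: tccccgctgctTATAAAcctcagccctgag
S100P, chr4:6693838-6693867, plus strand: atgaggctgcctTATAAAgcaccaagaggc
S100A6, chr1:153536002-153536031, minus strand: caccgaccgctataaggccagtcggactgc
S100A11, chr1:152037015-152037044, minus strand: gtaaggcttgggcaaggctgggccgggaag

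S100A8 and S100A13 have 3 RefSeq starts each, and the start shown is the only 1 of the 3 with TATAAA in this window. So 5 of the 12 starts of the members hold it there, against 2.34% of 35116 promoters of 300 bases. Over the whole 300 bases (250 before the start and 50 after it, either strand), TATAAA was found in 11.5% of all promoters. Another 5 letter patterns were searched on both strands in the same 300 bases, and all 6 were chosen after the members' values were known. For these 5, a member was counted if any of its starts matched, while each share is per promoter. With 3 starts each for S100A8 and S100A13, the member counts can be raised against the shares. TTNNGNAA, a loose form of the C/EBP site, was in 6 members (S100A6, S100A8, S100A9, S100A11, S100A13 and S100P) and in 36.8% of all promoters. GAGGAA, the core of the PU.1 site, was in 3 members (S100A8, S100A9 and S100P) and in 27.9% of all promoters. GGGCGG, the GC box, was in 5 members (S100A6, S100A9, S100A10, S100A11 and S100A13) and in 45.0% of all promoters. In S100A6, a pair of its GGGCGG matches overlap each other. TGANTCA, an AP-1 pattern present in 7.71% of all promoters, and GTAAACA, a forkhead pattern present in 3.42%, matched no member in this window. These are matches of letters only.

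The libraries held 8114892 to 11769061 counts, and 3 counts, the limit that a count of 0 allows, corresponded to 0.244 to 0.375 CPM. CPM here means counts scaled to a common library total, after TMM scaling (edgeR's correction for library composition) over the 12 libraries together. Libraries of 1 group correlated with Spearman's rho of 0.986 to 0.990 across genes, and no pair was identical. Of the 10 genes in the blast and myeloid progenitor marker list, 6 or 7 had counts in all 3 libraries of every group, among them CD33, FLT3, SPI1 and CEBPA. CD34 and IL3RA are not listed in either table.

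In OCI-AML2 all 8 S100 genes rose with selinexor, and in MOLM-13 S100A4, S100A6, S100A10 and S100A11 rose. In OCI-AML2 the 8 genes summed to 1013 ± 36.7 CPM (SD, n = 3) with vehicle and to 2058 ± 66.4 CPM with selinexor. In MOLM-13 the sums were 245 ± 6.19 and 476 ± 13.03 CPM, and treated and vehicle libraries did not overlap in either line. Calls are edgeR quasi-likelihood F tests with the Benjamini-Hochberg adjusted p, taken over all genes tested, under 0.05. That test called 31.3% of 12086 genes higher in OCI-AML2 and 31.8% of 11807 genes higher in MOLM-13, with 31.8% called lower in each line, so a rise by itself was common in both lines. Treated libraries lay wholly above vehicle libraries for 33.0% and 32.7% of these genes. They did so for all 8 members in OCI-AML2, and for S100A4, S100A6, S100A10 and S100A11 of the 6 members tested in MOLM-13. S100A13 was also apart in MOLM-13, but it was not tested there and so lies outside that share. The median log2 fold change was 1.47 for the 8 members in OCI-AML2, against -0.0016 for all genes tested there, and 1.11 for the 7 members without S100A13. In MOLM-13 it was 0.56 over the 6 members tested, against 0.0091 for all genes. S100A13 entered the OCI-AML2 test only through its treated libraries, so its call adds nothing to the count. S100A8 and S100A13 were under the count filter in MOLM-13. In bulk RNA, more cells that carry a transcript and more transcript per cell cannot be told apart.

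**Figure D1:**
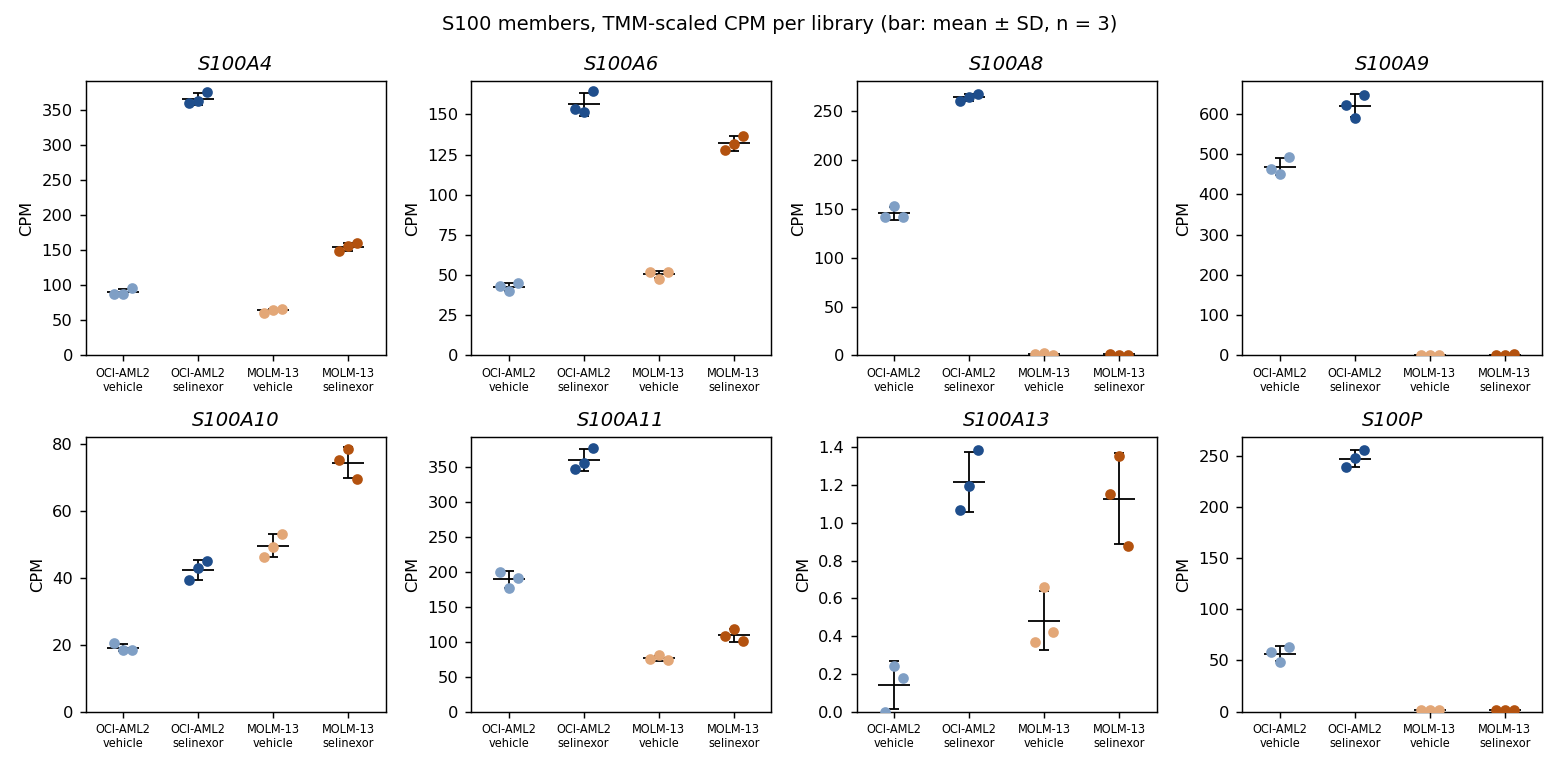
TMM-scaled CPM (vertical axis, linear, from 0, a separate range for each gene) of the 8 S100 genes in the 12 libraries. Points are libraries, and the horizontal bar with whiskers is the mean ± SD of the 3 libraries of a group. The OCI-AML2 selinexor points lie above the OCI-AML2 vehicle points for every gene, while S100A8, S100A9 and S100P stay near 1 CPM in both MOLM-13 groups (means of 0.966 to 1.77 CPM).

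S100A9 and S100A8 encode the subunits of calprotectin. In OCI-AML2, S100A9 was at 463, 451 and 493 CPM in the vehicle libraries and at 623, 591 and 648 CPM in the selinexor libraries. S100A8 was at 142, 153 and 142 CPM with vehicle and at 261, 265 and 267 CPM with selinexor. All treated libraries were above all vehicle libraries for both genes. The log2 fold change was 0.82 (SE 0.0439, edgeR adjusted p = 2.704e-20) for S100A8. For S100A9 it was 0.36 (SE 0.0411, edgeR adjusted p = 3.421e-10), the smallest rise of the 8. S100A9 ranked 3070 of 12086 by size of rise and S100A8 ranked 1239. The ratio of S100A9 to S100A8 counts, which is not corrected for transcript length, was 2.94 to 3.48 with vehicle and 2.23 to 2.43 with selinexor. The ranges did not overlap, and an exact two-sided permutation test gave p = 0.1, the smallest that 3 against 3 libraries allow.

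The calprotectin genes were near the detection floor in MOLM-13. S100A9 had 13, 18 and 16 counts in the vehicle libraries and 13, 15 and 18 counts in the selinexor libraries, or 1.75 ± 0.205 and 1.77 ± 0.416 CPM (SD, n = 3). Its log2 fold change was 0.0083 (95% interval -0.70 to 0.72, edgeR adjusted p = 0.986), and a change of the size seen in OCI-AML2 lies inside that interval. S100A8 had 8, 18 and 3 counts with vehicle and 13, 5 and 7 with selinexor. The treated and vehicle libraries of both genes overlapped. Without the count filter, the log2 fold change of S100A8 was -0.19 (SE 0.518, edgeR adjusted p = 0.786). In the vehicle groups, S100A9 was 265-fold and S100A8 133-fold lower in MOLM-13 than in OCI-AML2.

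The responses of the calprotectin genes in the 2 lines were not told apart. The response in MOLM-13 minus that in OCI-AML2 was -0.41 for S100A9 on the log2 scale (95% interval -0.93 to 0.12, edgeR adjusted p = 0.318). For S100A8 it was -1.04 (SE 0.433, edgeR adjusted p = 0.0652), and that value moved with single MOLM-13 libraries of few counts. It was -0.16 (edgeR adjusted p = 0.87) without vehicle library 2, -1.51 (edgeR adjusted p = 0.00193) without vehicle library 3 and -1.51 (edgeR adjusted p = 0.0139) without selinexor library 1.

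S100P showed the largest difference in response between the lines that passed the test. In OCI-AML2 it was at 58.1, 48.4 and 63.2 CPM with vehicle and at 239, 247 and 255 CPM with selinexor, a log2 fold change of 2.09 (SE 0.0700, edgeR adjusted p = 2.275e-14) that ranked 151 of 12086. In MOLM-13 it had 11, 10 and 13 counts with vehicle and 11, 16 and 9 with selinexor, or 1.27 ± 0.148 and 1.36 ± 0.282 CPM (SD, n = 3). The treated libraries were 4.25-fold above the vehicle libraries in OCI-AML2 and overlapped with them in MOLM-13, where the log2 fold change was 0.11 (95% interval -0.69 to 0.92, edgeR adjusted p = 0.823). The response in MOLM-13 minus that in OCI-AML2 was -2.02 (SE 0.366, edgeR adjusted p = 7.492e-06). With vehicle, S100P was 44.0-fold lower in MOLM-13 than in OCI-AML2.

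S100A4 and S100A6 lie next to each other on chromosome 1, apart from S100A5, and rose most among the members with high counts in both lines. S100A4 binds non-muscle myosin and is known from motile cells. It was at 86.9, 87.5 and 95.3 CPM with vehicle and at 359, 362 and 375 CPM with selinexor in OCI-AML2. In MOLM-13 it was at 60.9, 65.3 and 65.9 CPM with vehicle and at 148, 156 and 159 CPM with selinexor. The groups were far apart in both lines, and the log2 fold change was 1.98 (SE 0.0454, edgeR adjusted p = 1.192e-33) in OCI-AML2 and 1.28 (SE 0.0544, edgeR adjusted p = 4.867e-40) in MOLM-13.

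S100A6, also called calcyclin, binds CACYBP, a protein of ubiquitin ligase complexes. In OCI-AML2 it was at 43.0, 39.9 and 45.2 CPM with vehicle and at 153, 151 and 165 CPM with selinexor. In MOLM-13 it was at 51.6, 47.9 and 51.9 CPM with vehicle and at 128, 132 and 137 CPM with selinexor. Again no treated library overlapped with a vehicle library. The log2 fold change was 1.83 (SE 0.0599, edgeR adjusted p = 6.082e-28) in OCI-AML2 and 1.39 (SE 0.0590, edgeR adjusted p = 2.59e-40) in MOLM-13. S100A4 and S100A6 ranked 176 and 218 of 12086 genes in OCI-AML2 and 543 and 433 of 11807 in MOLM-13. The ratio of S100A4 to S100A6 counts moved from between 2.02 and 2.20 to between 2.28 and 2.39 in OCI-AML2 (exact two-sided permutation p = 0.1, the smallest possible). In MOLM-13 the ratio was 1.18 to 1.36 with vehicle and 1.16 to 1.19 with selinexor, and these ranges overlapped (exact two-sided permutation p = 0.2). The count of S100A6 may include reads of an opposite-strand transcript that shares 23 exonic bases with it, since the libraries were not strand-specific.

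S100A10, known as p11, forms a complex with annexin A2 that holds plasminogen and its activators at the cell surface. It was at 20.4, 18.5 and 18.5 CPM with vehicle and at 39.3, 42.9 and 44.9 CPM with selinexor in OCI-AML2. In MOLM-13 it was at 46.4, 49.4 and 53.2 CPM with vehicle and at 75.3, 78.7 and 69.7 CPM with selinexor. Its treated libraries lay above its vehicle libraries in both lines, with log2 fold changes of 1.11 (SE 0.0895, edgeR adjusted p = 1.787e-14) and 0.59 (SE 0.0681, edgeR adjusted p = 5.853e-13).

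The transcript of its partner ANXA2 fell in both lines. ANXA2 was at 56.2, 58.0 and 57.4 CPM with vehicle and at 39.1, 31.9 and 36.7 CPM with selinexor in OCI-AML2. In MOLM-13 it was at 89.2, 96.7 and 94.8 CPM with vehicle and at 49.6, 45.8 and 53.4 CPM with selinexor. It fell by 0.72 on the log2 scale (SE 0.0748, edgeR adjusted p = 3.152e-11) in OCI-AML2 and by 0.92 (SE 0.0647, edgeR adjusted p = 3.794e-24) in MOLM-13. The ratio of S100A10 to ANXA2 counts went from between 0.320 and 0.363 to between 1.00 and 1.34 in OCI-AML2, and from between 0.511 and 0.561 to between 1.30 and 1.72 in MOLM-13. Neither pair of ranges overlapped (exact two-sided permutation p = 0.1 in each line, the smallest possible), and the ratio is not corrected for length. Pseudogenes were looked up for the S100 members only. Reads shared with copies of ANXA2, if any, could therefore affect its counts and this ratio.

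Other genes linked to S100A10 moved with it or against it. AHNAK, a giant scaffold protein that binds the S100A10 and annexin A2 complex, rose by 1.33 on the log2 scale (SE 0.105, edgeR adjusted p = 1.36e-04) in OCI-AML2 and by 1.47 (SE 0.0427, edgeR adjusted p = 4.971e-54) in MOLM-13. PLAU, the plasminogen activator urokinase, rose by 1.01 and 1.35, and PLAUR, its receptor, fell by 0.42 and 0.27.

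**Figure D2:**
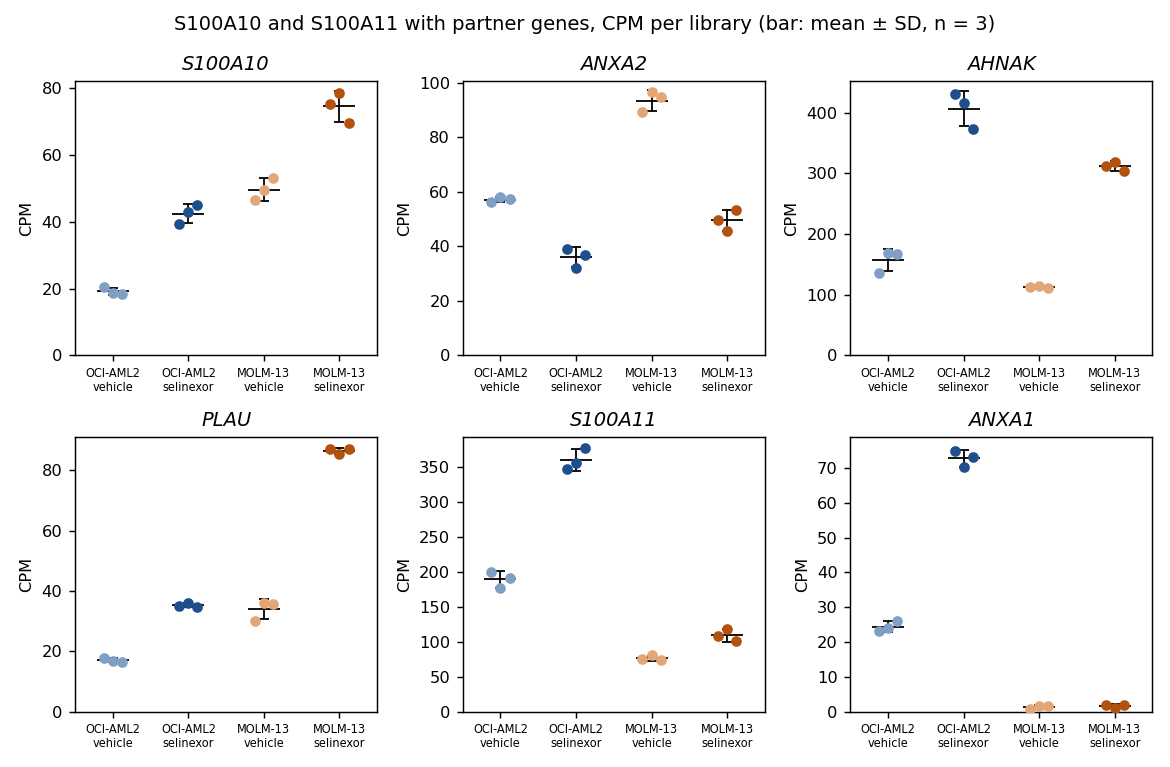
TMM-scaled CPM (vertical axis, linear, from 0) of S100A10 and S100A11 and of the partner genes ANXA2, AHNAK, PLAU and ANXA1 in the 12 libraries, with the mean ± SD of each group of 3. S100A10 is higher and ANXA2 lower with selinexor in both lines, and ANXA1 is above 70 CPM in treated OCI-AML2 cells and at no more than about 2.0 CPM in every MOLM-13 library.

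S100A11, or calgizzarin, binds annexin A1 and takes part in membrane repair and growth control. It was at 200.3, 177 and 192 CPM with vehicle and at 348, 356 and 378 CPM with selinexor in OCI-AML2. In MOLM-13 it was at 74.8, 80.4 and 74.1 CPM with vehicle and at 109, 119 and 101 CPM with selinexor. The groups did not overlap in either line, and S100A11 rose by 0.89 on the log2 scale (SE 0.0446, edgeR adjusted p = 1.488e-20) in OCI-AML2 and by 0.53 (SE 0.0580, edgeR adjusted p = 9.496e-14) in MOLM-13. GENCODE 29 names 2 processed pseudogenes after S100A11, neither is listed in the tables, and how reads shared with them were counted is not given in the sources used here. ANXA1 rose from between 23.2 and 26.1 CPM to between 70.3 and 75.0 CPM in OCI-AML2 (log2 fold change 1.53, edgeR adjusted p = 6.373e-22). In MOLM-13 ANXA1 had 6 to 15 counts with vehicle and 11 to 16 with selinexor (log2 fold change 0.34, edgeR adjusted p = 0.464).

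S100A13 was close to the floor in every library. It had 0, 3 and 2 counts in the OCI-AML2 vehicle libraries and 9, 11 and 13 in the selinexor libraries. In MOLM-13 it had 3, 6 and 4 counts with vehicle and 10, 13 and 7 with selinexor. Treated libraries were above vehicle libraries in both lines. The fitted log2 fold change in OCI-AML2 was 2.90 (SE 0.640, edgeR adjusted p = 1.3e-04), ranging from 2.42 without vehicle library 1, which had 0 counts, to 3.49 without vehicle library 2. In MOLM-13 without the count filter it was 1.20 (SE 0.597, edgeR adjusted p = 0.0916), and in a joint fit of the 12 libraries it was 1.21 (SE 0.541, edgeR adjusted p = 0.0468). The filter's cutoff was reached by 0 vehicle and 3 selinexor libraries in OCI-AML2, and by 0 and 2 in MOLM-13. S100A13 thus entered the OCI-AML2 and joint fits through its treated libraries, and their p-values are no support for a rise. S100A13 shares 235 exonic bases with S100A1 on the opposite strand and 536 with a non-coding gene on its own strand, so its few reads cannot be assigned to it alone.

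**Figure D3:**
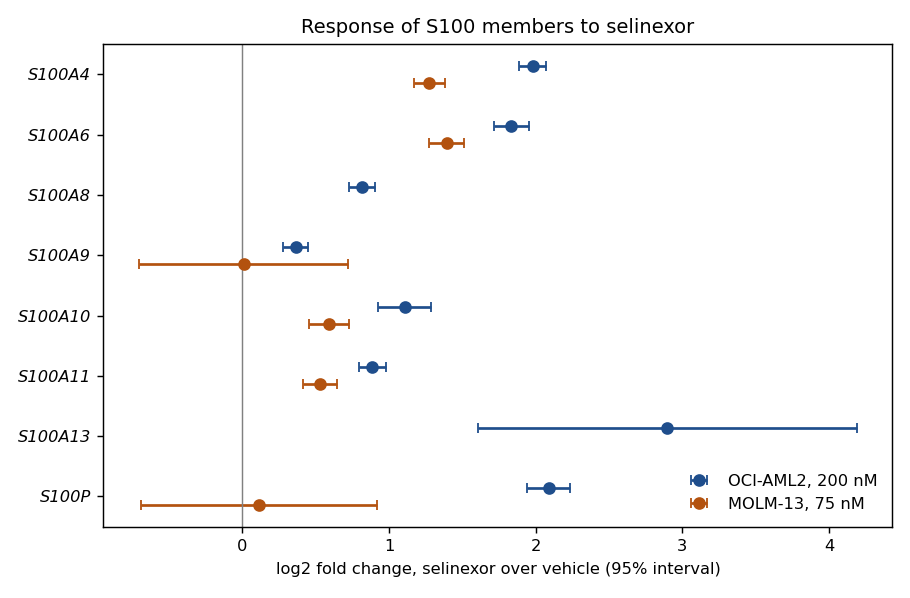
Log2 fold change of each S100 gene, selinexor over vehicle (horizontal axis), with its 95% interval from the per-line edgeR fits, in OCI-AML2 (200 nM, blue) and MOLM-13 (75 nM, orange). Genes with a point in both lines lie further right in OCI-AML2, and S100A8 and S100A13 have no MOLM-13 point because they were under the count filter.

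The responses differed in size between the lines for 5 of the 8 members, and all 5 were smaller in MOLM-13. Across the 12530 genes tested for this difference, 30.1% were called and 19.0% were called lower in MOLM-13. Beside S100P, the difference on the log2 scale (MOLM-13 response minus OCI-AML2 response) was -0.75 for S100A4 (SE 0.0706, edgeR adjusted p = 2.817e-15) and -0.49 for S100A6 (SE 0.0852, edgeR adjusted p = 2.448e-06). It was -0.56 for S100A10 (SE 0.113, edgeR adjusted p = 3.765e-05) and -0.41 for S100A11 (SE 0.0737, edgeR adjusted p = 1.017e-05). S100A13 had a wide interval around -1.72 (-3.51 to 0.067, edgeR adjusted p = 0.144). The direction split over all genes depended on scaling: 36.8% of the called differences were higher in MOLM-13 with TMM and 49.2% with upper quartile scaling. The 5 members kept their call and sign under each of the 18 alternatives, with the highest edgeR, DESeq2 or limma adjusted p at 0.00605 (S100A11). A response common to both lines (higher in each) was found for 2356 of the 11202 genes tested in both (21%), and for S100A4, S100A6, S100A10 and S100A11 of the 6 members tested in both.

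Without the drug, the lines differed in the makeup of their S100 transcripts. Vehicle MOLM-13 cells had less S100A4 (log2 difference from OCI-AML2 -0.49, edgeR adjusted p = 1.891e-13) and less S100A11 (-1.31, edgeR adjusted p = 6.313e-32), besides the low calprotectin genes and S100P. They had more S100A10 (1.38, edgeR adjusted p = 5.633e-27) and slightly more S100A6 (0.24, edgeR adjusted p = 8.294e-04). The S100A6 difference did not pass without OCI-AML2 vehicle library 2 (0.15, edgeR adjusted p = 0.0584). S100A13 did not pass (1.62, edgeR adjusted p = 0.057), but did without that library (2.18, edgeR adjusted p = 0.0472). Of 12530 genes tested, 71.2% differed between the vehicle groups, 35.0% higher and 36.2% lower in MOLM-13.

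Levels of different genes were set side by side per kilobase of exon (union of the GENCODE exons). In vehicle OCI-AML2 cells the order was S100A9 at 813 ± 37.5 CPM per kb (SD, n = 3), S100A11 at 279 ± 17.6, S100A8 at 145 ± 6.65 and S100A4 at 87.7 ± 4.57. Below them came S100P at 44.2 ± 5.88 and S100A6 at 43.95 ± 2.77, which did not differ beyond their spread, then S100A10 at 12.4 ± 0.707 and S100A13 at 0.0631 ± 0.0568 CPM per kb. With selinexor S100A4, at 357 ± 8.20 CPM per kb, passed S100A8, at 263 ± 3.28. In vehicle MOLM-13 cells S100A11 led at 112 ± 5.09 CPM per kb, then S100A4 at 62.5 ± 2.64, S100A6 at 52.0 ± 2.33 and S100A10 at 32.2 ± 2.20. S100A9 at 3.03 ± 0.355, S100A8 at 1.085 ± 0.833 and S100P at 0.993 ± 0.116 CPM per kb followed, the last pair within their spread, and S100A13 was lowest at 0.218 ± 0.0705. With selinexor, S100A11 at 161 ± 13.6 and S100A4 at 151 ± 5.56 CPM per kb did not differ beyond their spread on this length. The order depended in part on the length used. With the longest coding transcript in place of the exon union, S100A6 stood above S100P in both OCI-AML2 groups and S100A4 and S100A11 in treated OCI-AML2 cells were within their spread. In treated MOLM-13 cells S100A4, at 258 ± 9.50 CPM per kb, then stood above S100A6 and S100A11, at 184 ± 15.5, beyond their spread, and S100P was last.

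The share of each gene in the summed counts of the 8 shifted with the drug. In OCI-AML2, S100A9 made up 45.7% to 47.0% of them with vehicle and 29.3% to 30.8% with selinexor. S100A4 went from between 8.58% and 9.09% to between 17.6% and 17.9%, and S100P from between 4.96% and 6.03% to between 11.8% and 12.3%. In MOLM-13, S100A11 went from between 29.8% and 32.4% to between 21.4% and 24.3%, and S100A4 from between 25.6% and 26.5% to between 31.8% and 33.8%. All these ranges were apart between vehicle and selinexor libraries. As a share of all counts in a library, the 8 genes held 0.102% to 0.108% in vehicle OCI-AML2 (the lowest with a 95% Clopper-Pearson interval of 0.100% to 0.104%) and 0.197% to 0.205% with selinexor. In MOLM-13 they held 0.0239% to 0.0250% with vehicle and 0.0460% to 0.0484% with selinexor. Intervals and floors cover counting error only.

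**Figure D4:**
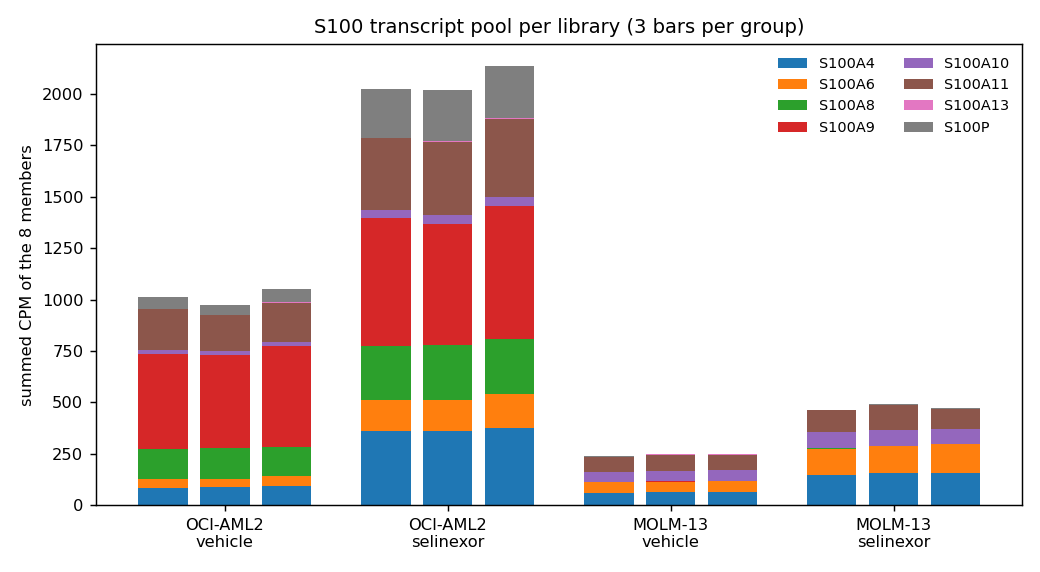
Summed TMM-scaled CPM of the 8 S100 genes (vertical axis, from 0) in each of the 12 libraries, 3 bars per group, with the part of each gene in its own colour. The OCI-AML2 bars stand between 976 and 1049 CPM with vehicle and between 2016 and 2135 CPM with selinexor, and the MOLM-13 bars between 238 and 249 and between 465 and 490 CPM.

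Among 12 other S100 genes, 10 were listed in a table, and few passed the count filter (2 in OCI-AML2 and 1 in MOLM-13). S100A1, best known from heart muscle, rose in both lines, from 7, 16 and 11 to 45, 33 and 45 counts in OCI-AML2 (log2 fold change 2.12, edgeR adjusted p = 1.314e-07). In MOLM-13 it rose from 30, 16 and 27 to 54, 45 and 36 counts (log2 fold change 0.92, edgeR adjusted p = 0.00138). S100A1 shares exonic bases with S100A13 on the opposite strand, so the 2 are not separate evidence. In OCI-AML2 it passed the count filter only through its treated libraries, as S100A13 did. S100B, a glial marker, rose by 1.06 on the log2 scale (edgeR adjusted p = 3.06e-04) in OCI-AML2 and had 1 or 2 counts in each MOLM-13 library. S100A12, the third calgranulin, was under the filter, with 5, 9 and 8 counts in vehicle and 8, 10 and 10 in treated OCI-AML2 libraries. No gene of the S100 fused type (such as FLG and TCHH), which lies in the same chromosome region, was tested in either line.

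The S100 genes of chromosome 1 were also set beside the other genes of their region, which runs from 250 kb below S100A10 to 250 kb above S100A1. Of its non-S100 genes, 9 were tested in OCI-AML2, where 3 were higher and 3 lower (33.3% higher, median log2 fold change -0.13). In MOLM-13, 11 were tested, 4 higher and 4 lower (36.4% higher, median -0.082). ILF2, an RNA-binding protein gene close to S100A1, fell by 0.80 and 0.83 in OCI-AML2 and MOLM-13. CHTOP, a factor of mRNA export that lies next to S100A1, fell by 0.37 and 0.67. THEM4, the closest tested gene below S100A10, rose by 0.44 and 1.30. These 3 genes were chosen after their values were seen. The shares of non-S100 genes that rose were near the 31.3% and 31.8% of all genes tested.

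**Figure D5:**
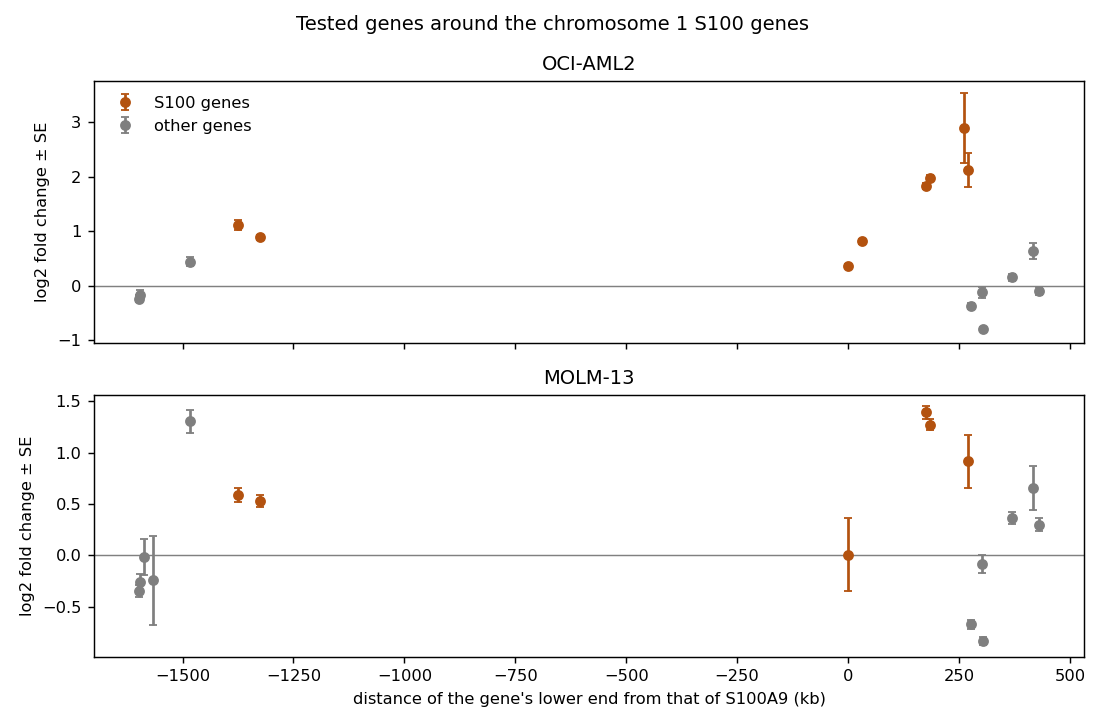
Log2 fold change ± SE (vertical axis, a separate range for each line) of the tested genes around the chromosome 1 S100 genes against their distance from S100A9 in kb, with S100 genes in orange and other genes in grey. In OCI-AML2 every S100 point lies above 0 while the others lie on both sides of it, and in MOLM-13 the S100A9 point lies at 0.0083. The OCI-AML2 points of S100A13 and S100A1 add nothing to this contrast. These genes share exonic bases and passed the count filter there only through their treated libraries.

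Annexins, the main partner family, did not move together. In OCI-AML2, 5 of 8 tested annexins rose and 2 fell, and in MOLM-13 3 rose and 3 fell. Over all genes tested, 31.3% were called higher and 31.8% lower in OCI-AML2, and 31.8% each way in MOLM-13. These shares also stand beside the counts of the gene and marker lists below. Beside ANXA1 and ANXA2, ANXA4 rose by 1.41 and 0.26 in OCI-AML2 and MOLM-13, ANXA11 rose by 0.62 and 0.19, and ANXA7 fell by 0.68 and 0.45. ANXA6 rose by 1.18 in OCI-AML2, and its value in MOLM-13 was 0.15 (edgeR adjusted p = 0.108). The median log2 fold change of the annexins was 0.56 in OCI-AML2 and 0.17 in MOLM-13.

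Of 14 tested binding partners of the members, ANXA1 and ANXA2 included, 5 rose and 9 fell in OCI-AML2, and 4 rose and 7 fell in MOLM-13. MYH9, the myosin heavy chain that S100A4 binds, rose by 0.30 and 0.54. EZR (ezrin), a partner of S100P, fell by 0.56 and 0.75, and PPP5C, a phosphatase that S100 proteins bind, fell by 0.59 and 0.76. Median log2 fold changes of this list were -0.23 and -0.16.

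Receptors for released S100 proteins gave no common direction. Of 10 tested in OCI-AML2, 4 rose and 4 fell, and of 6 in MOLM-13, 1 rose and 3 fell. TLR4, through which calprotectin signals, rose by 1.00 in OCI-AML2 (edgeR adjusted p = 6.771e-10) and was under the filter in MOLM-13. BSG (CD147, a receptor for S100A9) rose by 0.58 in OCI-AML2 and was at 0.030 in MOLM-13 (edgeR adjusted p = 0.408). CD33, which binds S100A9, rose by 0.49 in MOLM-13 and was at 6.5e-04 in OCI-AML2 (edgeR adjusted p = 0.994). MYD88, the adaptor of TLR4, fell by 0.24 and 0.21. ALCAM and NPTN, both reported receptors, fell by 0.28 and 0.14 in OCI-AML2 and by 0.36 and 0.27 in MOLM-13.

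The phagocyte NADPH oxidase is an enzyme that calprotectin helps to activate. In OCI-AML2, where 31.3% of all genes tested were called higher, 6 of its 7 genes rose and RAC1 fell. NCF1 rose by 1.85 on the log2 scale, CYBB by 1.23, CYBA by 0.83, NCF4 by 0.62 and RAC2 by 0.50, and RAC1 fell by 0.39. In MOLM-13, where 31.8% of all genes tested were called higher, 3 of 6 rose: NCF1 by 1.28, RAC2 by 0.17 and CYBA by 0.14. There RAC1 fell by 0.32 and NCF4 was at 0.15 (edgeR adjusted p = 0.23). CYBB was under the filter. NCF1 has near-identical pseudogene copies, so its reads may be split.

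Of 13 transcription factors that have been reported to act on S100A8 and S100A9, 7 rose in each line, and 3 fell in OCI-AML2 and 2 in MOLM-13. CEBPA rose by 0.60 and 0.97, CEBPD by 0.85 and 0.71, SPI1 (PU.1) by 0.25 and 0.37 and IRF8 by 0.22 and 0.75. CEBPE, a factor of late granulocyte maturation, rose by 0.51 in OCI-AML2, from between 58.4 and 61.5 CPM to between 84.0 and 89.8 CPM. In MOLM-13 it rose by 1.51, from between 0.855 and 1.26 CPM to between 2.30 and 3.75 CPM, and it passed the filter there only through its treated libraries. Median log2 fold changes of the list were 0.21 and 0.29.

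EF-hand genes outside the S100 family moved in both directions. Of 26 tested, 8 rose and 8 fell in OCI-AML2 (median log2 fold change 0.0033), and 5 rose and 13 fell in MOLM-13 (median -0.12). CALM2, a calmodulin gene, fell by 0.30 and 0.59, EFHD2 fell by 0.37 and 0.65 and CALU (calumenin) fell by 0.49 and 0.53. NUCB1 (nucleobindin) rose by 0.91 and 0.43, and its relative NUCB2 rose by 0.33 in OCI-AML2 and fell by 0.75 in MOLM-13.

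Myeloid marker genes moved beside the S100 genes. In OCI-AML2, 10 monocyte markers summed to 1677 to 1869 CPM with vehicle and to 9767 to 10080 CPM with selinexor. In MOLM-13 these sums were 137 to 143 CPM and 981 to 1032 CPM. LYZ alone made up 82.4% to 97.3% of the monocyte sum in every library, and without it the sums were 94.3 to 100.1 and 274 to 291 CPM in OCI-AML2 and 23.1 to 25.1 and 47.2 to 59.7 CPM in MOLM-13. Of these markers, 4 of 6 tested rose in OCI-AML2 and 4 of 5 in MOLM-13, with LYZ (lysozyme) up by 2.47 and 3.04 and TYROBP up by 1.68 and 1.28 on the log2 scale. FCGR3A and CD163 were at or near 0. The summed level of 10 neutrophil markers went from between 1515 and 1535 CPM to between 4264 and 4422 CPM in OCI-AML2, with 4 of 6 tested higher and 2 lower. In MOLM-13 it went from between 3645 and 3812 CPM to between 6034 and 6445 CPM, with 5 of 6 higher and 1 lower. AZU1, CSF3R and ELANE were higher in both lines. MPO and PRTN3 were lower in OCI-AML2 and higher in MOLM-13, and CTSG was higher in OCI-AML2 and lower in MOLM-13. LTF, LCN2, CAMP and FCGR3B, markers of mature neutrophils, are at 0 or not listed in MOLM-13. The summed level of the 10 blast and myeloid progenitor markers rose as well, from between 1338 and 1355 CPM to between 1915 and 1981 CPM in OCI-AML2. In MOLM-13 it went from between 1231 and 1242 CPM to between 2026 and 2058 CPM. Of these markers, 5 of 6 tested were higher in OCI-AML2 and 6 of 6 in MOLM-13, with no gene lower. In treated MOLM-13 cells, LYZ had thus risen to between 922 and 982 CPM while S100A8 and S100A9 were at 0.966 and 1.77 CPM. The part of these markers in the S100 results was not tested.

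For markers of other cell types, summed levels were 1.65 to 16.8 CPM for 10 erythroid and megakaryocyte genes and 1.42 to 42.4 CPM for 10 epithelial or fibroblast genes, with HBA1, HBB, EPCAM and COL3A1 among those at 0 or not listed. For 10 lymphocyte genes they were 67.0 to 146 CPM, with CD3E, CD2 and MS4A1 at 0 or not listed and NCAM1 as the largest part. In vehicle MOLM-13 cells the lymphocyte sum (140 to 146 CPM) was thus as high as the monocyte sum. The lymphocyte sum went from between 67.0 and 71.4 CPM to between 109 and 114 CPM in OCI-AML2, where NCAM1 and NKG7 rose, and from between 140 and 146 CPM to between 118 and 126 CPM in MOLM-13, where NCAM1 fell. The epithelial or fibroblast sum went from between 12.7 and 13.3 CPM to between 32.9 and 42.4 CPM in MOLM-13, where KRT8 and KRT18 rose. The erythroid and megakaryocyte sum went from between 2.02 and 2.83 CPM to between 14.3 and 16.8 CPM in OCI-AML2, where ITGA2B rose. ITGA2B reached the filter's cutoff in 2 vehicle and 3 selinexor libraries there, so it was tested only because of its treated libraries. Their part in the S100 results was not tested.

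For each member with a mean of at least 5 CPM over the 12 libraries, the genes with the most similar profile were taken by Pearson's r of log2 CPM (pseudocount 0.5) among 10279 genes. S100A9 was closest to CD93 (0.999) and MBOAT2 (0.999), and S100A8 to BPI and CTSL (both 0.996). S100P was closest to DOCK10 (0.998) and MGAM2 (0.997), and S100A11 to CST3 (0.995) and DOK3 (0.995). S100A4 was closest to SH3KBP1 and MLLT6 (both 0.996), S100A6 to PSAP (0.996) and SNHG29 (0.994), and S100A10 to RPS6 (0.995) and TRIP6 (0.994). The 12 points fall into 4 groups and share libraries and depth, so these values describe group levels more than libraries. CD93, MBOAT2, BPI, CTSL and MGAM2 had means of at most 0.492 CPM in either MOLM-13 group. Their r therefore rests largely on the difference between the lines. In OCI-AML2, MBOAT2 changed by 0.053 on the log2 scale against 0.36 for S100A9, and DOCK10 by 0.54 against 2.09 for S100P. CTSL was nearer to its member, at 1.00 against 0.82 for S100A8. PSAP, the gene of prosaposin, had a pattern like that of S100A6 also in size, with log2 fold changes of 1.65 and 1.16 in OCI-AML2 and MOLM-13.

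The authors' deposited table for MOLM-13, turned to selinexor over vehicle, lists log2 fold changes of 1.26 for S100A4, 1.38 for S100A6, 0.58 for S100A10 and 0.51 for S100A11. For the genes with few counts, the authors' deposited table lists -0.19 for S100A8, 0.0034 for S100A9, 1.22 for S100A13 and 0.093 for S100P. The standard errors in the authors' deposited table are 0.716, 0.484, 0.739 and 0.557, in that order.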

How the data were processed

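RNA sequencing libraries of 12 cell cultures (3 in each of 4 groups) were, per the labels' protocols, made by poly(A) selection without strand information. The submitters' processing notes name STAR, hg38, R 3.6.1 and DESeq2. Which counting tool and gene models were used is not given in the sources used here. Whole-number read counts by gene symbol were deposited by the authors in a table for each line. They also deposited log2 fold changes with standard errors for MOLM-13 as vehicle over selinexor (opposite in sign to the edgeR estimate for 7506 of 7506 genes called), so the sign was turned. A table's initial (O or M) gave the line, and a column's letter (D or S) gave the treatment. Library numbers only name columns, which have no replicate number of their own, and 0 columns were left unused.

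From the counts, edgeR 4.0.16 in R 4.3.3 (TMM, filterByExpr with minimum count 10 and minimum total 15, robust quasi-likelihood F tests, Benjamini-Hochberg over all genes, threshold 0.05) was fitted to the 6 libraries of each line. The difference between responses and the vehicle contrast were fitted to the 12 libraries on genes in both tables. Printed CPM are on the joint scale. Levels across the lines rest on tables counted separately but scaled together here. Standard errors come from the F statistic. Alternatives used DESeq2 1.42.0 and limma 3.58.1. On simulated counts with 200 changed genes, 96.4%, 100% and 88.9% of 2-fold changes were recovered for OCI-AML2, MOLM-13 and the difference between responses, and 93.2%, 90.9% and 55% of 1.5-fold changes. Unchanged genes called numbered 8, 6 and 27 of 12070, 11806 and 12703 genes. The changed genes were drawn only from those above a minimum mean count, and all genes had the same dispersion. The rates therefore do not cover genes with few counts, such as S100A8, S100A9, S100A13 and S100P in MOLM-13. Far fewer genes were changed than were called in the data, so scaling under the actual response was not tested.

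The members and gene lists were chosen with earlier results of these data known. All members are named. From each list every tested gene was named where 7 or fewer were tested, and otherwise up to 4 per line by smallest p; for likeness, the 2 closest genes. PLAUR, KRT8, KRT18, ITGA2B, NCAM1, NKG7 and the marker genes and S100A12 were named after their values were seen. Positions and lengths come from GENCODE 29 (GRCh38), and promoter sequences from RefSeq (GRCh38.p14), where 8 of 8 members matched. Some genes taken by the rule, and a sequence, are left out of the text.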

Additional observations from a re-analysis of the deposited data

Results flagged for a closer look

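The responses of 5 S100 genes differed between the lines by the test of the difference itself (edgeR's interaction of line and treatment over 12 libraries, Benjamini-Hochberg adjusted). On the log2 scale, the response in MOLM-13 minus that in OCI-AML2 was -0.75 for S100A4, -0.49 for S100A6, -0.56 for S100A10, -0.41 for S100A11 and -2.02 for S100P, with edgeR adjusted p-values of 2.817e-15, 2.448e-06, 3.765e-05, 1.017e-05 and 7.492e-06. For S100A4, S100A6, S100A10 and S100A11 all 3 treated libraries were above all 3 vehicle libraries in both lines, so the difference is one of size. For S100P the groups were apart in OCI-AML2 only, and its MOLM-13 libraries had 9 to 16 counts. The dose was 200 nM in OCI-AML2 and 75 nM in MOLM-13, so line and dose cannot be told apart. With 3 libraries per group, single libraries were not tested for standing apart.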

How the results depend on the processing

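No paired analysis was possible because the columns carry no replicate numbers. Scaling by DESeq2 size factors or upper quartile, no count filter, DESeq2, limma voom, thinned counts, a joint fit and leaving out each library kept the counts of called genes within 1.5 times. Called genes were 7625 in OCI-AML2 (6734 to 7760, 7032 to 7548 with a library left out), 7506 in MOLM-13 (6668 to 7688, 7045 to 7281), 3768 for the difference between responses (3086 to 3810, 3333 to 3727) and 8924 between vehicle groups (8523 to 9229, 8534 to 9022). Of 466 member values under alternatives, 451 kept their direction and call. The share of called response differences that were higher in MOLM-13 was 36.8% (1388 higher, 2380 lower), 44.4% with DESeq2 size factors and 49.2% with upper quartile scaling (1828 higher, 1890 lower). It was 56.8%, 56.5% and 55.8% without OCI-AML2 vehicle libraries 1, 2 and 3, and 56.8% without MOLM-13 vehicle library 2, with the median over all genes moving from -0.040 to at most 0.052. The sign of the uncalled S100A9 change in MOLM-13 (0.0083) turned with no filter (-0.0095), voom (-0.0079), thinning (-0.097) and the joint fit (-0.0010), and ranged from -0.19 to 0.11 with a library left out. That of S100P in MOLM-13 (0.11) ranged from -0.075 to 0.22. The difference in response of S100A8 (-1.04) passed with no filter (edgeR adjusted p = 0.0364) and in DESeq2 (adjusted p = 0.0492), and the vehicle difference of S100A13 passed in voom (1.79, limma adjusted p = 0.0201). S100A13 fell under the filter in OCI-AML2 with thinned counts and without selinexor library 3. For S100A8, S100A9, S100A13 and S100P in MOLM-13, with 3 to 18 counts per library, depth limits what can be seen. The causes of these turns were not tested.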
